A study of Mus musculus with 39 samples.

Results

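Scavenger receptors are cell-surface and lysosomal proteins that bind modified lipoproteins, microbial products and debris. The 8 genes described here, Msr1, Marco, Colec12, Cd36, Scarb1, Scarb2, Cd68 and Stab1, were chosen by symbol among the 23337 gene symbols counted in each of 39 libraries. Of the 8, 7 passed a filter on low counts and were tested among 12450 genes. Marco had no count in any library.

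The receptors fall into structural classes that share little sequence and overlap in what they bind. Class A proteins carry a collagen-like stalk, class B proteins cross the membrane at both ends and handle lipids, and class D and H members have their own folds. On macrophages they carry oxidised lipoproteins, lipids, matrix fragments and dying cells into the lysosome, and in inflamed joints they are studied as part of that clearance.

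RNA was measured in monocytes and macrophages sorted from C57BL/6 mice of 21 to 37 weeks. HUPO mice, labelled Flipflox/floxCD11ccre, carry a floxed Flip gene (symbol Cflar, an inhibitor of death receptor signalling) and a cre driven by CD11c. They had established arthritis. Control mice, labelled Flipflox/floxCD11c+, carried the same floxed gene and were littermates or matched for age and gender. Blood gave classical (CM) and non-classical (NCM) monocytes. Ankle cells were sorted into F4/80-high populations FH1 and FH2 and F4/80-intermediate populations FI1, FI2 and FI3, and FI2 has no control group here. There were 13 groups of 3 libraries, each library from more than 400 cells, with 12 libraries from blood and 27 from ankle. The cre acts only in cells that have expressed CD11c, so the groups differ both in which cells lost Flip and in whether the mouse had arthritis, and these cannot be told apart. The labels give each library a number, in places followed by x4 or x5, without saying what it marks. Where libraries do not come from separate mice, p-values measure a spread that may be technical.

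Levels are in CPM, counts divided by the scaled library total, given as mean ± SD with n = 3 unless stated. Library totals were 3116615 to 14100712 counts. Cflar, the targeted gene, was detected in every group, at 58.3 ± 5.05 CPM in control CM and 52.1 ± 28.3 in HUPO CM, and at 219 ± 43.2 in control FH2 and 40.7 ± 27.3 in HUPO FH2. Its count is of the whole gene, so it does not measure the deletion. Emr1, the gene of F4/80, ran from 972.7 to 1525 CPM in FH libraries and from 138 to 841 CPM in FI libraries. The summed level of 10 classical monocyte markers was 5963 to 7580 CPM in control CM and 366 to 717 in control NCM. In FI1 it was 10594 to 13014 CPM in control and 17336 to 19754 in HUPO libraries, above CM of the same arm. Some libraries held markers of other cells: 14 neutrophil markers summed to 17776 to 27232 CPM in the 6 FI1 libraries and to 3375 to 6673 in HUPO FI2. In FH1 that sum was 6.00 to 914 CPM in control and 1886 to 10726 in HUPO libraries, without overlap, and in FH2 51.9 to 1139 and 337 to 4898. By Xist and 4 Y-linked genes, all 6 control blood libraries were male while 2 of 3 HUPO libraries of CM and of NCM were female. All FI1, FI2 and HUPO FI3 libraries were female, and control FI3 had 1 female and 2 male libraries. A single control FH2 library held transcripts of both sexes.

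In GENCODE annotation of mm10, Msr1 lies at chr8:39581685-39642673, Marco at chr1:120474538-120505024 and Cd36 at chr5:17781690-17888801. Scarb1 lies at chr5:125277087-125341094, Scarb2 at chr5:92441314-92506833 and Cd68 at chr11:69664213-69666153. Stab1 lies at chr14:31139013-31168641, and these 7 genes are on the minus strand. Stab1 shares 112 exonic bases, 1.09% of its own, with Nt5dc2 on the other strand. No strand-specific step is named, so reads from those bases cannot be assigned.

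The RefSeq promoter table (build GRCm38.p6) held 5 of the 8 genes. The windows of Cd36, Stab1 and Cd68 are shown because these genes differ most in where they were detected: Stab1 almost only in the ankle, Cd36 in most groups but nearly absent from HUPO CM, and Cd68 in every library. Each window runs from 250 bases before the listed start to 50 bases after it, 5′ to 3′ on the minus strand. The Cd36 start lies inside the annotated gene, which has several transcripts. Capitals mark a GAGGAA (the core bound by PU.1, a myeloid factor), a TGANTCA (AP-1) or an AGGTCA (a motif of nuclear receptors), on either strand.
Cd36, chr5:17835847-17836146: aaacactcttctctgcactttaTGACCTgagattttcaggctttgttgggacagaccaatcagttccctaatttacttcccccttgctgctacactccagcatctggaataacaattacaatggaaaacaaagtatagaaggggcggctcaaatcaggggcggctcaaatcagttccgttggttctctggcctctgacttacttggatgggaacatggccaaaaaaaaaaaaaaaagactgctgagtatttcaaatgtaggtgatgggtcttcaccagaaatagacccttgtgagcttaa
Stab1, chr14:31168592-31168891: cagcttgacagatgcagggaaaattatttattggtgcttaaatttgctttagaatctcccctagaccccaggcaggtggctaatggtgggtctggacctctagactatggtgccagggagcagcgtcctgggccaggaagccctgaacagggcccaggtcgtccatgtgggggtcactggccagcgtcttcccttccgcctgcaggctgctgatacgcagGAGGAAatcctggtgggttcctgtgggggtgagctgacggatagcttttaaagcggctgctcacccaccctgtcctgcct
Cd68, chr11:69666121-69666420: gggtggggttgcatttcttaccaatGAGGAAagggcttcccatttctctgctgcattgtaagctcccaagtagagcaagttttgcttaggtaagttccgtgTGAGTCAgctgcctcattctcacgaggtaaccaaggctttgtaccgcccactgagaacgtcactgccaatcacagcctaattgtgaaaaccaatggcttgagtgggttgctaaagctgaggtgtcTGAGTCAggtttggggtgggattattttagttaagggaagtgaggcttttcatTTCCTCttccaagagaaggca
Counting the start base as 0, Cd68 held GAGGAA from -225 and, on the opposite strand, from 29, and TGANTCA from -149 and from -24. Stab1 held GAGGAA from -30, and Cd36 held AGGTCA on the opposite strand from -228. Marco, which was not detected, also held GAGGAA, from -146, and the Scarb2 window held none of the motifs searched. Of 32851 promoters of this length, 28.3% held GAGGAA, 7.81% TGANTCA and 16.3% AGGTCA on either strand. The E-box CACGTG, held by 7.15% of promoters, was also searched on both strands and was in none of the 5 windows. The TATA box letters TATAAA, held by 13.6%, were not found there either. TGANTCA reads the same on both strands and was counted once, and the motifs found did not overlap. These matches describe the letters only.

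Levels of different genes can be set side by side only per exon length. On that scale, CPM per kilobase of exon, Cd68, a heavily glycosylated protein of late endosomes and lysosomes, was the highest of the 8 in all 13 groups, from 379 per kilobase in control FI1 to 2064 in HUPO FH2. Cd36, which takes up long-chain fatty acids and oxidised lipoproteins, ran from 2.88 per kilobase in HUPO CM to 778 in HUPO FH1. Msr1, the class A receptor for acetylated lipoproteins, ran from 4.89 in control NCM to 140.3 in HUPO FH2. Scarb1, the high-density lipoprotein receptor, was the only member with its highest level in blood, 56.7 per kilobase in HUPO CM. Scarb2, which carries glucocerebrosidase to the lysosome, moved least, between 14.3 and 42.5 per kilobase, a 2.97-fold range over the 13 groups.

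**Figure D1:**
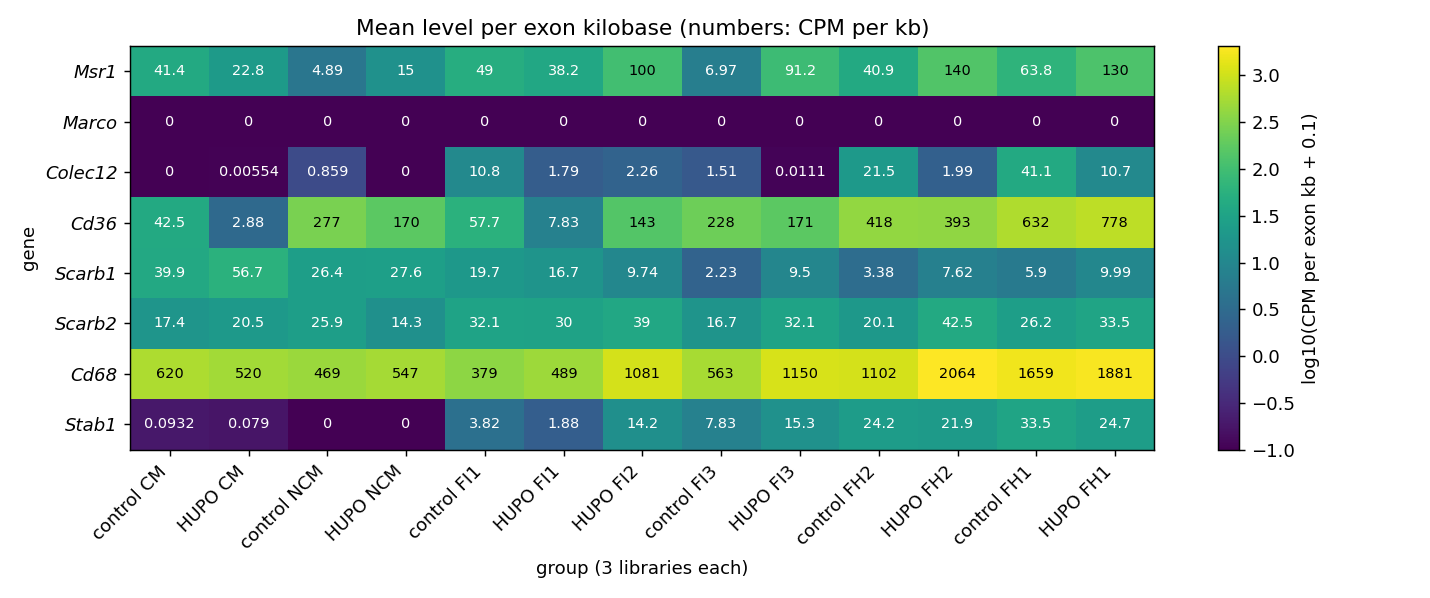
Mean level of each of the 8 genes (vertical axis) in each group of 3 libraries (horizontal axis), as CPM per exon kilobase on a log10 colour scale with 0.1 added, and the value printed in each cell. Cd68 is the highest in every column, Marco is 0 throughout, and Stab1 and Colec12 are near or at 0 in blood.

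HUPO and control libraries were compared within each of 6 populations to ask how the arthritis model differs from its controls. Adjusted p-values come from edgeR's quasi-likelihood test over all 12450 genes. Of the 7 tested members, 2 were called in FI3 and 2 in FH2, in both cases Msr1 and Cd68, where 1.07% and 0.651% of all genes were called. In NCM 1 was called, Msr1, where 0.731% of all genes were called. None was called in CM, FI1 or FH1, where 0.562%, 0.225% and 0.843% of all genes were, that is 70, 28 and 105 genes. At an unadjusted p under 0.05, 2 members passed in CM (Msr1 and Cd36), 1 in FI1 (Cd36) and 1 in FH1 (Msr1), beside 1387, 1052 and 891 genes of all. DESeq2 called 2 members in CM, Cd36 and Colec12, and none in FI1 or FH1. The Colec12 call, at a fitted log2 fold change of 14.92, rests on 1 count in 1 HUPO CM library, with 0 in all other CM libraries. All 5 calls were higher in HUPO mice, and no member was called lower in any population. The median log2 fold change of the 7 members was 0.97 in FI3 and 0.91 in FH2, beside 0 and -0.11 over all genes, and -0.21 in CM and -0.36 in FI1, beside 0 and 0. Libraries are bulk pools of sorted cells, so fewer cells of a type and less RNA per cell cannot be told apart in any of these values.

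**Figure D2:**
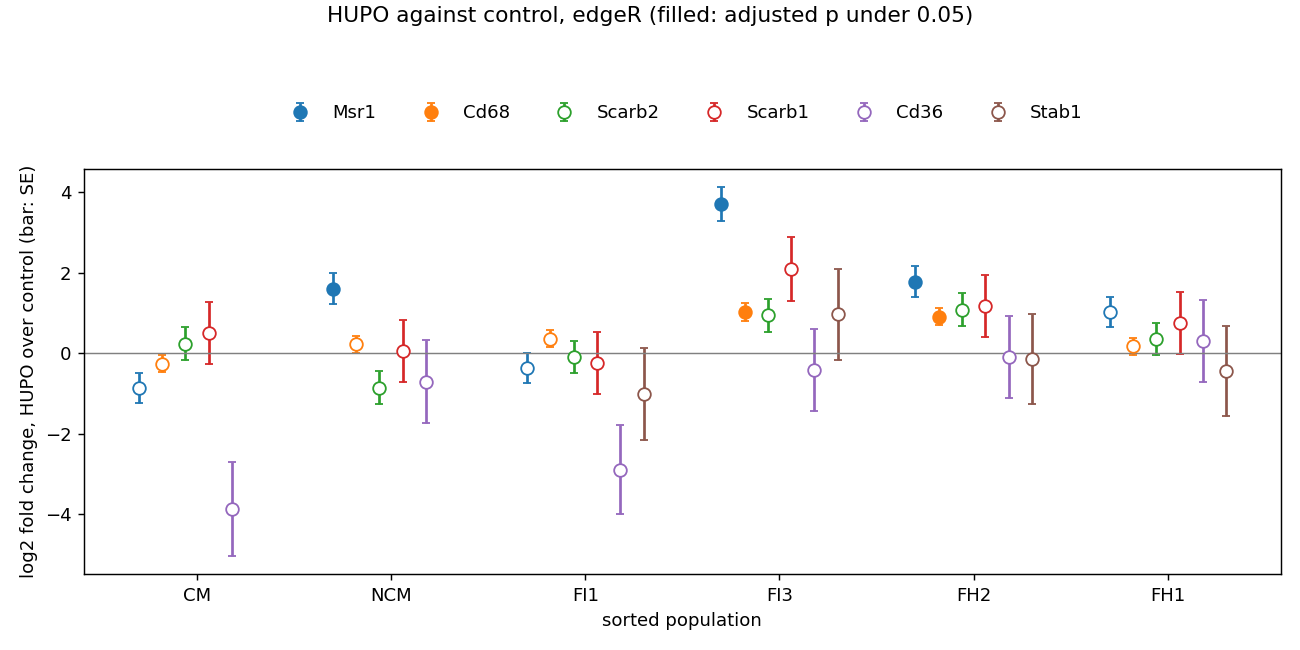
Log2 fold change of HUPO over control (vertical axis, points; bars are the SE of the edgeR fit) for 6 genes in each of 6 sorted populations (horizontal axis), with filled points for an adjusted p under 0.05. Msr1 is filled in NCM, FI3 and FH2 and Cd68 in FI3 and FH2. Stab1 is left out in blood, where its groups are at or near 0. Colec12, at or near 0 in CM, HUPO NCM and HUPO FI3 but at 359 CPM in control FH1, is also left out.

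Msr1, which takes up modified lipoproteins and apoptotic debris, was the member called in 3 of the 6 populations. In FI3 the 3 control libraries held 22.5, 39.5 and 70.6 CPM and the 3 HUPO libraries 491, 536 and 708. Every HUPO library stood above every control library, by a factor of 13.1 between fitted group levels (log2 fold change 3.71, SE 0.41, adjusted p = 8.9e-07). The call held under every alternative setting and without any of the 6 libraries, with log2 fold changes between 3.39 and 4.22. The only female control FI3 library was the lowest of the group at 22.5 CPM, and all 3 HUPO FI3 libraries were female. Markers of other cells moved with it. The 10 dendritic cell markers summed to 1632 to 2026 CPM in control FI3, with none of them at 0, and to 56.2 to 253 CPM in HUPO FI3, where Clec9a, Siglech and Btla were at 0. Cd209a alone averaged 1466 ± 277 CPM in control FI3 and 36.3 ± 31.5 in HUPO FI3. The 7 osteoclast-lineage markers summed to 255 to 666 CPM in control and 1530.2 to 2501 CPM in HUPO FI3. Sums in the same direction as Msr1 and without overlap were also those of macrophage markers (22197 to 27158 CPM in control, 35745 to 38429 in HUPO FI3) and classical monocyte markers (2982 to 3387 and 6083 to 8709 CPM). The neutrophil sum was 54.2 to 129 CPM in control and 692 to 1863 in HUPO FI3, and that of fibroblast markers 37.4 to 92.9 and 347 to 451. Platelet markers went the other way, 493 to 1013 and 78.5 to 184 CPM, although 6 of the 7 were at 0 in control FI3, all but Pf4. The part of these cells in the Msr1 difference was not tested.

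In FH2 Msr1 was at 160.3, 200.3 and 419 CPM in control and 775, 926 and 969 CPM in HUPO libraries. The groups did not overlap, although the control library with transcripts of both sexes, at 419 CPM, stood well above the other 2 controls. The log2 fold change was 1.78 (SE 0.38, adjusted p = 0.0147), a 3.43-fold difference. Without that library it was 2.29 (adjusted p = 0.00363). The call was lost without the control library at 200.3 CPM (adjusted p = 0.172) or at 160.3 CPM (0.19), without the HUPO library at 969 CPM (0.0591) or 926 CPM (0.0586), and when only the 6 FH2 libraries were fitted (0.0826). Dendritic cell markers summed to 236 to 376 CPM in control FH2 and 0 to 25.6 in HUPO FH2, and 10 macrophage markers to 39748 to 45141 and 67602 to 76174 CPM. Sums of classical monocyte markers (5295 to 6825 CPM in control, 4020.5 to 4673 in HUPO), non-classical monocyte markers (756 to 1177 and 266 to 315) and endothelial markers (50.8 to 101 and 15.3 to 37.5) were lower without overlap, and that of T cell markers was higher (14.4 to 57.7 and 151 to 302). In HUPO FH2, 6 of the 7 T cell markers were at 0, all but Il7r, and 8 of the 10 endothelial markers were at 0. The part of these cells in this result was not tested.

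In FH1 the order was the same but no call was made. Control libraries held 379, 392 and 443 CPM of Msr1 and HUPO libraries 702, 864 and 902, without overlap (log2 fold change 1.02, SE 0.38, adjusted p = 0.443). It was called when only the 6 FH1 libraries were fitted (adjusted p = 0.0393). Beside the neutrophil sums given above, macrophage markers summed to 46459.7 to 53683 CPM in control and 57525 to 69230.1 in HUPO FH1 and T cell markers to 0.978 to 7.44 and 68.3 to 107. Sums of dendritic cell markers (60.0 to 128 and 0.201 to 18.1 CPM), classical monocyte markers (6076 to 7719 and 3680 to 5893.5) and non-classical monocyte markers (545 to 1014 and 182 to 317) went the other way. None of these ranges overlapped, and their part was not tested. Of the 7 T cell markers, Cd3e, Cd3d, Cd3g, Cd8a and Lck were at 0 in FH1 of both arms. In FI1 the 3 control libraries, 198 to 380 CPM, and the 3 HUPO libraries, 169 to 308 CPM, overlapped (log2 fold change -0.36, adjusted p = 1).

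In blood the fitted Msr1 differences had opposite signs in the 2 monocyte types. NCM held 18.2, 33.5 and 41.4 CPM in control and 50.5, 106 and 128 in HUPO libraries, without overlap (log2 fold change 1.61, SE 0.38, adjusted p = 0.034). The lone male HUPO library was the lowest at 50.5 CPM, close to the 3 male controls. With a term for sex the log2 fold change was 1.57 and the call was lost (adjusted p = 0.115). It was also lost with edgeR's default dispersion (0.0569), with only the 6 libraries fitted (0.96), and without the control library at 33.5 CPM (0.0757) or 18.2 CPM (0.193) or the HUPO library at 106 CPM (0.116) or 128 CPM (0.218). Classical monocyte markers summed to 366 to 717 CPM in control and 959 to 1290 CPM in HUPO NCM, and 9 non-classical markers to 8634 to 11795 and 3321 to 5974 CPM. Macrophage markers (15233 to 19705 CPM in control, 10937.5 to 13674 in HUPO NCM), endothelial markers (366 to 710.4 and 136 to 267) and 5 erythroid markers (8201 to 20989.6 and 1271 to 7011) were also lower without overlap. In both arms 7 of the 10 endothelial markers were at 0, and so were Hba-a1 and Hba-a2 of the erythroid markers. The part of all these cells was not tested. CM held 195, 280 and 313 CPM of Msr1 in control and 125, 138 and 170 in HUPO libraries, so that every HUPO library lay below every control library, with a log2 fold change of -0.86 (SE 0.37, adjusted p = 0.401).

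The differences between these HUPO effects were tested directly. The effect on Msr1 in FI3 minus that in FI1 was 4.07 on the log2 scale (SE 0.55, adjusted p = 6.08e-05), and 0.321% of all genes were called in that comparison. This call held under every alternative, with adjusted p-values up to 0.0126. The effect in NCM minus that in CM was 2.47 (SE 0.53, adjusted p = 0.0258), beside 0.265% of all genes. That call was lost with the default dispersion (0.0506), with only the 12 blood libraries fitted (0.686), and without any 1 of 8 libraries. Those were the CM libraries other than the control at 195 CPM, the control NCM library at 18.2 CPM and the HUPO NCM libraries at 106 and 128 CPM, with adjusted p-values of 0.0505 to 0.111. No other member was called in either comparison. The effect in FH2 minus FH1 was 0.75 for Msr1 (SE 0.53, adjusted p = 1) and in FH minus FI -0.27 (adjusted p = 1), comparisons in which 0.177% and 0.257% of all genes were called and no member. At an unadjusted p under 0.05, 1 member passed in the first, Cd68, and 0 in the second, and DESeq2 called 0 in both.

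Within the control mice Msr1 was 8.44-fold lower in NCM than in CM (log2 fold change -3.08, SE 0.40, adjusted p = 1.1e-05) and 7.03-fold lower in FI3 than in FI1 (-2.81, SE 0.40, adjusted p = 2.83e-05). The background was 0.884% of genes called in the first comparison and 1.94% in the second. Both calls held in every setting with a shared fit, and were lost when only the 6 libraries compared were fitted (adjusted p = 0.0653 and 0.0838). In HUPO mice the same comparisons gave -0.60 for NCM against CM (adjusted p = 0.533) and, in the opposite direction, 1.25 for FI3 against FI1 (adjusted p = 0.12). These comparisons use the same libraries as those between HUPO and control mice. The 4 highest groups for Msr1 were all HUPO ankle populations, FH2 at 890.0 ± 102, FH1 at 823 ± 107, FI2 at 634 ± 160 and FI3 at 578 ± 114 CPM. HUPO FI3 did not overlap the next group, control FH1 at 405 ± 34.2 CPM, whereas every other pair of neighbours in the order overlapped.

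**Figure D3:**
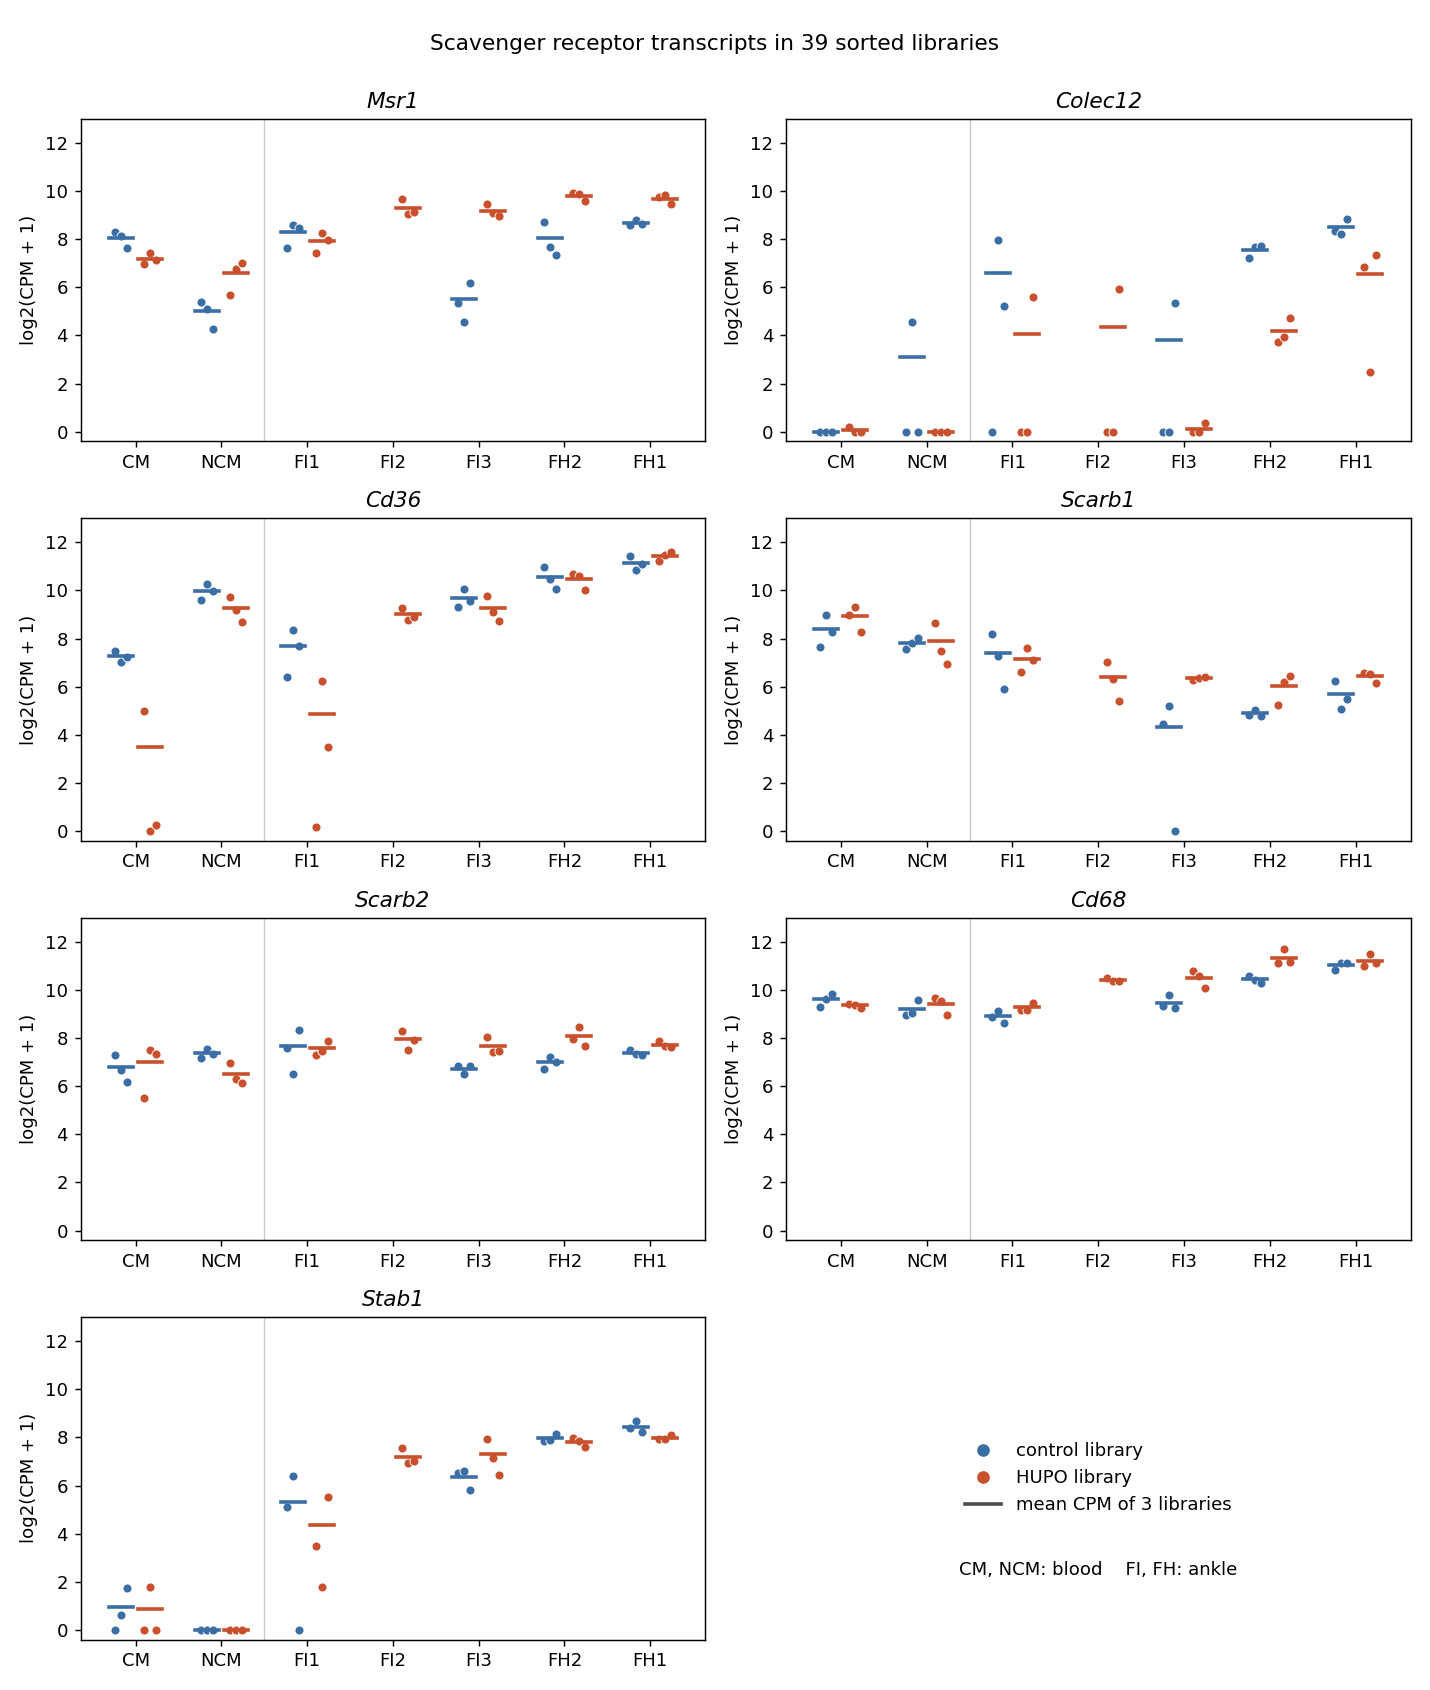
Level of each of 7 members in each of the 39 libraries, as log2(CPM + 1) (vertical axes), by sorted population (horizontal axes), with control in blue and HUPO in orange and a bar at the mean CPM of each group of 3 libraries. Msr1 in FI3 is separated between control (22.5 to 70.6 CPM) and HUPO (491 to 708 CPM), and Cd36 in CM between control (131 to 176 CPM) and HUPO (0 to 30.9 CPM).

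Colec12, a class A member with a C-type lectin domain known from endothelium and other stromal cells, lies on the plus strand of chromosome 18 (9707595 to 9882644) and was a gene of the F4/80-high control populations. Control FH1 held 299, 325 and 452 CPM and control FH2 146.5, 204 and 212. In HUPO mice FH1 held 4.62, 114 and 161 CPM and FH2 12.4, 14.5 and 25.1. Both populations were lower in HUPO mice without overlap, and neither was called (FH1 log2 fold change -1.94, SE 2.32, adjusted p = 1; FH2 -3.44, SE 2.47, adjusted p = 0.82). When only the 6 FH2 libraries were fitted, FH2 was called (adjusted p = 0.019). In FI libraries Colec12 was found in some libraries of a group and not in others. It was at 247 and 36.5 CPM in 2 control FI1 libraries and at 0 in the other, and the 14 fibroblast markers summed to 9146, 9501 and 636 CPM in them. A single HUPO FI1 library held it at 46.9 CPM and a single HUPO FI2 library at 59.1, with fibroblast sums of 3924 and 3618 CPM. A single control FI3 library held it at 39.5 CPM with a fibroblast sum of 46.9 CPM, so its level did not go with these markers there. In HUPO FI3 it was at 0, 0 and 0.291 CPM, with fibroblast sums of 347 to 451 CPM. The part of fibroblasts was not tested.

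In the FH libraries the fibroblast sums were 661 to 1516 CPM in control FH1, 182 to 955 in HUPO FH1, 148 to 896 in control FH2 and 209 to 393 in HUPO FH2. The control FH2 library with the lowest of the control FH sums, 148 CPM, had the highest Colec12 of its group, 212 CPM. Of the 14 fibroblast markers, 5 were at 0 in control FH1 and 4 in control FH2, with Col1a1, Lum, Fbln1 and Postn at 0 in both. The other fibroblast markers had counts there. Of 10 endothelial markers, Cdh5, Tie1, Emcn, Egfl7 and Cldn5 were at 0 in control FH1 and FH2, and the others had counts in control FH2. The part of either cell type was not tested. Colec12 was counted in 20 of the 39 libraries in all. In blood it was found in 1 control NCM library at 22.5 CPM and in 1 HUPO CM library at 0.145 CPM. Marco, a class A receptor of marginal zone and alveolar macrophages, was at 0 in all groups, where 3 counts over the 3 libraries would have been 0.105 to 0.179 CPM.

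**Figure D4:**
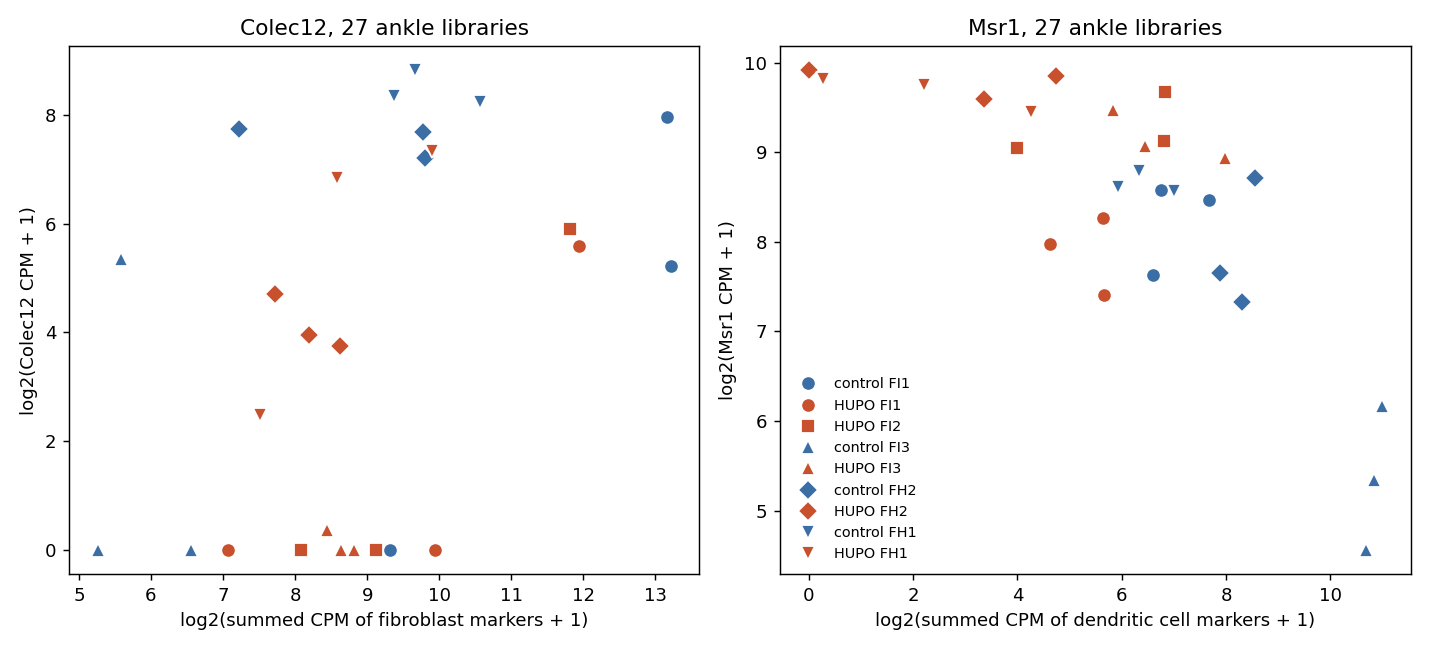
Left, Colec12 against the summed CPM of 14 fibroblast markers, and right, Msr1 against the summed CPM of 10 dendritic cell markers, both axes as log2(CPM + 1), each point 1 of 27 ankle libraries with shape for the population and colour for control or HUPO. The control FH libraries hold Colec12 at fibroblast sums of 148 to 1516 CPM, and the control FI3 libraries combine the lowest Msr1 with dendritic sums of 1632 to 2026 CPM.

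Cd36 was higher in every NCM library than in every CM library of the same arm. In control blood, CM held 131, 150.4 and 176 CPM and NCM 769.6, 998 and 1216, without overlap and without a call (log2 fold change 2.71, SE 1.09, adjusted p = 0.373; default dispersion 0.00177). In HUPO blood, CM held 0, 0.182 and 30.9 CPM and NCM 409, 589 and 835. That comparison was called (log2 fold change 5.87, SE 1.27, adjusted p = 0.0128), with 1.21% of all genes called. It was lost when only the 6 libraries were fitted (adjusted p = 0.394). Without the HUPO CM library at 30.9 CPM, the only male one of that group, the log2 fold change was 12.63, since both other libraries are at or near 0.

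Between arms, Cd36 was lower in HUPO mice without overlap in CM (log2 fold change -3.87, SE 1.16, adjusted p = 0.16) and in FI1. In FI1 the control libraries held 84.0, 207 and 330 CPM and the HUPO libraries 0.129, 10.2 and 74.0 (log2 fold change -2.89, SE 1.11, adjusted p = 0.494). Neither was called by the shared trended fit. With edgeR's default dispersion both were called, at adjusted p = 0.00274 in CM and 0.0299 in FI1, and DESeq2 called CM (0.00413) and not FI1. Without the HUPO CM library at 30.9 CPM the CM difference was called at -10.63 (adjusted p = 0.000242). That library was the only male one of HUPO CM, so this fit set female HUPO libraries against male controls. Sex and arm cannot be told apart in it. Non-classical monocyte markers summed to 3738 to 4540 CPM in control CM and 885 to 1003 in HUPO CM, in the same direction as Cd36. Platelet markers, another source of Cd36 transcript, summed to 242 to 383 CPM in control CM and 43.8 to 132 in HUPO CM. Erythroid markers (4434 to 13108 and 631 to 2778 CPM) and T cell markers (153 to 361 and 0 to 21.5) were lower too, and classical monocyte markers higher (5963 to 7580 and 12709.6 to 16905), each without overlap. In FI1 erythroid (239 to 892 and 61.9 to 127 CPM) and dendritic cell sums (95.3 to 204 and 23.6 to 49.3) were lower and the classical monocyte sum higher (10594 to 13014 and 17336 to 19754). Their part was not tested. In FI3, FH2, FH1 and NCM the arms overlapped for Cd36, with log2 fold changes between -0.70 and 0.30.

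In the ankle the FH groups held the most Cd36. It was 2792 ± 356 CPM in HUPO FH1, 2268 ± 467 in control FH1, 1500.1 ± 471 in control FH2 and 1410.2 ± 322 in HUPO FH2, all above every FI group mean. In HUPO mice FH was above FI1 and FI3 without overlap (log2 fold change 3.92, SE 0.82, adjusted p = 0.00581). In control mice FH also stood above FI without overlap, and this was not called (2.17, SE 0.76, adjusted p = 0.109). HUPO FI3, 428 to 869.7 CPM, and FI2, 436 to 622 CPM, stood above HUPO FI1, 0.129 to 74.0 CPM, with adjusted p-values of 0.0589 for FI3 and 0.103 for FI2.

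The balance of Cd36 and Msr1 within a library was set side by side for both arms. The ratio of Cd36 to Msr1, each per exon kilobase, does not depend on the scaling of a library. It was 18.8 to 83.2 in control FI3 and 1.54 to 2.17 in HUPO FI3. In NCM it was 32.9 to 97.1 in control and 5.64 to 29.2 in HUPO libraries, and in FH2 8.46 to 12.6 and 2.39 to 3.02. In CM it was 0.828 to 1.36 and 0 to 0.437, and in FI1 0.75 to 1.53 and 0.00135 to 0.425. All HUPO libraries were below all control libraries in 5 of the 6 populations, and in FH1 the ranges, 7.43 to 13.0 and 4.93 to 7.85, overlapped. With 3 libraries against 3 an exact permutation test cannot go below 0.1, so no test was made of the ratio.

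Scarb1, the class B receptor for high-density lipoprotein, was a blood gene here. It averaged 482 ± 164 CPM in HUPO CM, 339 ± 157 in control CM, 234 ± 147 in HUPO NCM and 225 ± 34.4 in control NCM, followed by FI1 at 167 ± 116 in control and 142 ± 49.9 in HUPO mice. The remaining 7 ankle groups averaged 18.9 to 84.9 CPM. Control FI3, at 0, 21.0 and 35.8 CPM, was below control FI1, at 58.1, 156 and 289 CPM (log2 fold change -3.14, SE 0.83, adjusted p = 0.0388). That call was lost with a term for sex (0.0584), with only the 6 libraries fitted (0.746), and without the control FI1 library at 289 CPM (0.16) or 156 CPM (0.0579) or the control FI3 library at 21.0 CPM (0.12). HUPO FI3 held 75.7, 82.3 and 84.2 CPM, above every control FI3 library and not called (log2 fold change 2.09, SE 0.80, adjusted p = 0.321). In FH2 the HUPO libraries, 37.2 to 85.7 CPM, were also above the controls, 26.6 to 32.0 CPM (1.17, SE 0.78, adjusted p = 0.741).

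Scarb2, the lysosomal class B member, differed little between groups, from 89.9 ± 30.3 CPM in HUPO NCM to 267 ± 73.7 in HUPO FH2. HUPO libraries were above control libraries without overlap in FI3, FH2 and FH1 and below them in NCM. The log2 fold changes were 0.94 (SE 0.41, adjusted p = 0.421), 1.08 (SE 0.41, adjusted p = 0.482), 0.35 (adjusted p = 1) and -0.86 (adjusted p = 0.516). No call was made. Counting all 7 members, 4 were higher without overlap in FI3, where 10.2% of all genes were (0 lower, beside 7.09%), and 4 in FH2, where 7.12% were. Those were Msr1, Cd68, Scarb1 and Scarb2 in both populations. In FH1 2 were higher, Msr1 and Scarb2, beside 7.28% of genes, and 2 lower, Stab1 and Colec12, beside 8.34%. In CM 2 were lower, Msr1 and Cd36, beside 6.62%, and 0 higher, beside 5.04%. In FI1 1 was higher, Cd68, beside 7.57%, and 1 lower, Cd36, beside 3.96%. In NCM 1 was higher, Msr1, and 1 lower, Scarb2, beside 5.33% and 4.98%. In FH2 1 was lower, Colec12, beside 11.3% of genes.

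Cd68, the class D member used widely as a macrophage stain, was detected in every library. In FI3 it held 605, 641 and 877 CPM in control and 1089, 1507 and 1740.5 in HUPO libraries, without overlap (log2 fold change 1.03, SE 0.21, adjusted p = 0.00689). In FH2 it held 1256, 1376 and 1525 CPM in control and 2185, 2248 and 3351 in HUPO libraries, again without overlap (0.91, SE 0.21, adjusted p = 0.0326). The fitted levels differed 2.04-fold in FI3 and 1.87-fold in FH2. The FI3 call was lost with only the 6 libraries fitted (0.135) and without the control library at 641 CPM (0.0529) or 605 CPM (0.0658) or the HUPO library at 1740.5 CPM (0.0784). The FH2 call was lost with only the 6 libraries fitted (0.0996), without any single control library (0.0757 to 0.217) and without the HUPO library at 3351 CPM (0.414). The marker sums given beside Msr1 in FI3 and FH2 moved with Cd68 as well. In FH1, FI1, CM and NCM the log2 fold changes lay between -0.25 and 0.37, with no call.

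Among ankle populations Cd68 was 2.93-fold higher in control FH than in control FI1 and FI3 (log2 fold change 1.55, SE 0.15, adjusted p = 1.71e-08) and 2.63-fold higher in HUPO FH than HUPO FI (1.39, SE 0.15, adjusted p = 3.54e-07), without overlap of libraries in either arm. In HUPO mice it was higher in FI3 than in FI1 (1.23, SE 0.21, adjusted p = 0.000713) and in FI2 than in FI1 (1.14, SE 0.21, adjusted p = 0.00219). In the first of these 1.26% of all genes were called and in the second 0.9%, and Cd68 was the only member called in either. HUPO FI2, at 1306, 1336 and 1434 CPM, was below all HUPO FH2 libraries (-0.93, SE 0.21, adjusted p = 0.0429, beside 0.345% of genes). That call was lost with no filter on low counts (0.0623), with only the 6 libraries fitted (0.125), and without any of the 3 FI2 libraries (0.0927 to 0.214) or the HUPO FH2 library at 3351 CPM (0.372) or 2248 CPM (0.0544). Between FI2 and FI3 of HUPO mice no member was called, with 1 gene called of all tested (0.00803%), by DESeq2 0 as well, and at an unadjusted p under 0.05 only Colec12, and a log2 fold change of 0.13 for Msr1, -0.27 for Cd36 and -0.09 for Cd68.

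Stab1, stabilin-1, clears matrix proteins and modified lipoproteins and is known from sinusoidal endothelium and tissue macrophages. It was nearly undetected in blood. All 6 NCM libraries had 0 counts, and the 6 CM libraries held 0 to 2.44 CPM. In the ankle its group means ran from 19.3 ± 22.8 CPM in HUPO FI1 and 39.3 ± 42.5 in control FI1 through 80.5 ± 22.3 in control FI3 to 345 ± 56.1 in control FH1. Control FH1, at 296, 332 and 406 CPM, was above HUPO FH1, at 245, 246 and 271, without overlap and without a call (log2 fold change -0.44, SE 1.12, adjusted p = 1). In FH2 and FI3 the arms overlapped. Between FI1 and CM of HUPO mice no member was called, beside 1% of genes, although every FI1 library held more Stab1 than every CM library and DESeq2 called it. Control FI1, at 0, 33.4 and 84.4 CPM, was called above control CM, at 0, 0.552 and 2.33 CPM (log2 fold change 5.30, SE 1.38, adjusted p = 0.0382, beside 1.88% of genes), although both groups hold a library at 0. That call was lost with a term for sex (0.114), with only the 6 libraries fitted (0.776), and without the control CM library at 0 (0.178) or 0.552 CPM (0.165) or the control FI1 library at 84.4 CPM (0.174). The 10 endothelial markers summed to 36.5 to 74.0 CPM in control FH1 and 366 to 710.4 CPM in control NCM, where Stab1 was 0. In control NCM 7 of these 10 were at 0, all but Pecam1, Vwf and Eng, and in control FH1 8, all but Vwf and Eng. The part of endothelial cells was not tested. Nt5dc2, which shares exonic bases with Stab1, averaged 14.5 ± 5.92 CPM in control FH1 and 125 ± 45.2 in HUPO FI2.

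All ankle populations of an arm, apart from FI2, were compared with its blood monocytes. In HUPO mice all 7 tested members were called, 6 higher and 1 lower in the ankle, with 11.2% of all genes called, 6.59% higher and 4.61% lower. In control mice 5 were called, 4 higher and 1 lower, with 12.7% of genes, 6.88% higher and 5.84% lower. Msr1 was higher in both (HUPO log2 fold change 2.27, SE 0.26, adjusted p = 8.38e-08; control 1.11, SE 0.24, adjusted p = 0.0014). Cd68 was higher in both (1.19, adjusted p = 1.23e-07; 0.55, adjusted p = 0.00381), the control call being lost with a term for sex (0.0539). Stab1 averaged 178 ± 134 CPM in control ankle libraries (n = 12) against 0.48 ± 0.931 in blood (n = 6), and 164 ± 102 against 0.406 ± 0.995 in HUPO mice (adjusted p = 1.41e-06 and 2.62e-06). Scarb1 fell by 2.58 in control mice and by 1.91 in HUPO mice on the log2 scale (adjusted p = 0.000101 and 0.00368). Cd36 was called in HUPO and not in control mice (2.67, SE 0.73, adjusted p = 0.0147, lost at 0.0638 with only HUPO libraries fitted), and so was Scarb2 (1.00, SE 0.26, adjusted p = 0.00928). The difference of these effects between arms was tested, and no member passed (Msr1 1.16, adjusted p = 0.0639; Cd68 0.64, adjusted p = 0.0737; Cd36 adjusted p = 0.721; Scarb2 adjusted p = 0.312), where 1.46% of all genes did. At an unadjusted p under 0.05, 3 members passed, Msr1, Cd68 and Scarb2, and DESeq2 called Msr1 and Cd68.

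Colec12 was also called higher in the ankle in both arms, at adjusted p = 0.0166 in control and 0.0449 in HUPO mice. Its control mean was 163 ± 151 CPM against 3.75 ± 9.18 in blood, and its HUPO mean 31.5 ± 52.4 against 0.0242 ± 0.0592. The control call was lost with control FI1 reduced to the library without Colec12 and without the control FI3 library at 39.5 CPM (both adjusted p = 1), and without any single control CM library (0.0513 to 0.0566). The HUPO call was lost with no filter on low counts (0.0574), with the default dispersion (0.846), without the HUPO FI1 library at 46.9 CPM or the HUPO FI3 library at 0.291 CPM (both 1), and without most other single libraries (0.0524 to 0.109). Tissue of origin and the handling of each tissue cannot be told apart. Between FH and FI populations, 2 members were called in control mice, Msr1 and Cd68 (3.94% of genes), and 3 in HUPO mice, Msr1, Cd68 and Cd36 (1.98% of genes), all higher in FH. Msr1 was 2.76-fold higher in control FH (adjusted p = 0.000564) and 2.29-fold higher in HUPO FH (adjusted p = 0.0088), and the HUPO call was lost with the replicate number as a block (0.0735). Msr1 libraries of FH and FI overlapped in both arms. Between FH2 and FH1 no member was called in either arm, beside 0.394% of genes in control and 0.0643% in HUPO mice. At an unadjusted p under 0.05, 1 member passed in control mice, Cd68, and 0 in HUPO mice, and DESeq2 called 0 in both.

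Genes that work around the receptors were read from 5 lists chosen with earlier results of these data known. The shares of all genes called, against which the counts of each list stand, were 11.2% in HUPO ankle against blood (6.59% higher and 4.61% lower), and, for HUPO against control mice, 0.562% in CM, 0.731% in NCM, 0.225% in FI1, 1.07% in FI3, 0.843% in FH1 and 0.651% in FH2. The median log2 fold change over all genes was -0.11 in FH2 and 0 in FI3 and FH1. Of 16 tested lysosome membrane and hydrolase genes, 11 were called higher and 1 lower in HUPO ankle against blood, with a median log2 fold change of 1.10 beside 0.20 over all genes. In FH2 of HUPO against control mice 3 of the 16 were higher and 0 lower, namely the cathepsins Ctss (19287 ± 2772 against 6520 ± 290 CPM, adjusted p = 2.29e-06) and Ctsb (adjusted p = 6.38e-05) and the saposin precursor Psap (adjusted p = 3.38e-05). In FI3 2 were higher, Ctss (8476 ± 1927 against 2895 ± 445 CPM, adjusted p = 1.74e-06) and Ctsb (adjusted p = 0.00787). In FH1 Ctss was higher (adjusted p = 0.000716). The medians of this list were 0.62 in FH2, 0.55 in FI3 and 0.02 in FH1.

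Of 18 genes of lipid uptake, storage and efflux, 3 were called higher and 0 lower in HUPO FH2, 2 higher in FI3 and 1 in FH1, beside 0.651%, 1.07% and 0.843% of all genes. The median log2 fold changes of the list were 1.04, 0.76 and 1.14, beside -0.11, 0 and 0 over all genes. The lipid droplet coat gene Plin2 averaged 1484 ± 252 CPM in HUPO FH2 against 472 ± 166 in control (adjusted p = 0.0128), and 1138 ± 425 against 407 ± 243 in FI3 (adjusted p = 0.0224). Apoc2, the cofactor of lipoprotein lipase, was higher in all 3 (adjusted p = 0.0109 in FH2, 0.0314 in FI3 and 0.0028 in FH1). Apoe was higher in HUPO FH2 (16017 ± 5211 against 3194 ± 1725 CPM, adjusted p = 0.00423) and lower in HUPO FI1 (612 ± 172 against 2474 ± 1628 CPM, adjusted p = 0.037). Of 16 tested genes of 21 on the list of other scavenger receptors, Lgals3, a lectin that binds advanced glycation products, was higher in HUPO FI3, FH1 and FH2 (6765 ± 525 against 2440.1 ± 531 CPM in FH2, adjusted p = 2.29e-06). Cd44, the hyaluronan receptor, was higher in FH1 (adjusted p = 0.0325), and no gene of that list was lower in any population.

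Of 14 tested engulfment genes, 1 was called in FI3, beside 1.07% of all genes, and 1 in FH1, beside 0.843%. In both it was Itgb5, an integrin subunit that binds bridging proteins on dying cells, higher in HUPO FI3 (174 ± 20.2 against 40.5 ± 25.0 CPM, adjusted p = 0.0135) and lower in HUPO FH1 (146 ± 41.5 against 633 ± 99.2 CPM, adjusted p = 0.0114). Of 22 transcription factors, Nr4a1, a nuclear receptor that non-classical monocytes need, was lower in HUPO CM (424 ± 86.4 against 1884 ± 370 CPM, adjusted p = 0.00108), NCM (adjusted p = 0.0116), FH1 (adjusted p = 0.0247) and FH2 (adjusted p = 0.00048). Cebpb, a factor of myeloid activation, was higher in HUPO FI3 (2864 ± 226 against 1337 ± 199 CPM, adjusted p = 0.000709) and FH2 (adjusted p = 0.0467). Klf2 was lower in FI3 (adjusted p = 0.0137), and Klf4 in NCM (adjusted p = 0.0422) and FH2 (adjusted p = 0.0381).

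The genes whose log2 CPM tracked each member most closely over the 39 libraries were listed as a description, among 8286 genes with a mean of at least 10 CPM. The libraries share population, arm and, in places, the number in their label, so these are not independent points. Msr1 was closest to Prdx1 (Pearson's r 0.82, Spearman's rho 0.87), a peroxiredoxin, to the proteasome subunit gene Psmd8 (0.80, rho 0.81) and to the ferritin heavy chain gene Fth1 (0.80, rho 0.85). Cd68 was closest to Ctsb, Grn and Ctsa, genes of lysosomal proteins, with r between 0.89 and 0.90. Stab1 was closest to Trim47 (0.96), Pdpn (0.95) and App (0.93), and Colec12 to Fermt2 (0.89), S100b (0.82) and Dnm1 (0.81). Cd36 was closest to Spred1 (0.82), Ckb and Slamf9 (both 0.81), Scarb1 to Chst12 (0.87), Mospd3 (0.83) and I830077J02Rik (0.80), and Scarb2 to Jmy, Rab20 and Plin2, with r between 0.69 and 0.70. Between members, r over the 39 libraries was 0.75 for Stab1 with Cd68, 0.66 for Msr1 with Cd68, 0.16 for Msr1 with Cd36 and -0.53 for Stab1 with Scarb1.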

How the data were processed

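The deposited files hold raw counts per gene symbol for 39 libraries. Per the labels' protocols, RNA of more than 400 sorted cells was amplified with SMART-Seq v4, made into libraries with Nextera XT and read as single 75 bp reads. Per the submitters' processing notes, FastQC, STAR, HTSeq and Cufflinks were used with mm10; their versions and settings are not given in the sources used here. Per the series' text, the authors dropped low-quality samples before deposit, then control samples least like their group and HUPO F4/80-high samples rich in neutrophil transcripts; dropping unlike controls narrows the spread that p-values are set against. Groups came from the labels. No column of another sample was present (0).

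In R 4.3.3, genes were filtered with filterByExpr, scaled by trimmed mean of M values (TMM, factors 0.829 to 1.16), and fitted with edgeR 4.0.16 (trended dispersion, quasi-likelihood, robust) in 1 model of 39 libraries with 26 residual degrees of freedom. Benjamini-Hochberg adjustment ran over 12450 genes within each of 26 comparisons; a call is an adjusted p under 0.05. The dispersion was high (median 2.29), and libraries had 7390 to 10804 genes with a count, which limits precision. The script was run on simulated data with a dispersion set far below this. That run does not measure power or false calls at the dispersion of these libraries. Alternatives were DESeq2 size factors, DESeq2 1.42.0, no filter, edgeR's default dispersion, only the groups compared, the replicate number as a block, and each library left out; a term for sex and control FI1 reduced to its library with the fewest fibroblast transcripts were added after seeing the data.

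Named genes are the 8 receptors, up to 3 called members per list and comparison with the smallest p, the 3 genes most alike to each receptor, and label checks; 1 gene that this rule names is not reported here. The receptors and the lists were chosen with earlier results of these data known. Of 214 distinct listed genes, 203 matched by symbol, 6 by an older symbol and 5 not.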

Additional observations from a re-analysis of the deposited data

Results flagged for a closer look

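Both results below rest on a test of a difference between HUPO effects in 2 populations. For Msr1 the HUPO effect in FI3 exceeded that in FI1 by 4.07 on the log2 scale, with all 3 HUPO libraries above all 3 control libraries in FI3 and the arms overlapping in FI1. For Msr1 the effect in NCM exceeded that in CM by 2.47, with all HUPO libraries higher in NCM and all lower in CM. The cause of either difference was not tested.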

How the results depend on the processing

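Of 32 member calls, 16 held under every alternative that could be run and without any single library; 31 member values that were not called passed under some alternative. Of 208 group levels, 202 moved by less than 1 SD under another scaling, which shifted the median of all genes by up to 0.104 (log2). The number of libraries, 3 a group, and a high dispersion limit what can be called. The cause of each change below was not tested.

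Counts of members called that moved by over 1.5 times were as follows. With no filter, FI2 against FH2 gave 0. With the default dispersion, HUPO against control gave 1 in CM, 0 in NCM and 1 in FI1; control NCM against CM gave 2, control FH against FI 5, control FI1 against CM 2, HUPO FI1 against CM 1, and HUPO FI3 and FI2 against FI1 each 4. The difference of effects gave 0 for NCM minus CM and 1 for ankle minus blood. With DESeq2, HUPO against control gave 2 in CM and 2 in NCM; control NCM against CM gave 3, control FH against FI 4, control FI1 against CM 3, HUPO NCM against CM 3, HUPO FI1 against CM 1, and HUPO FI3 and FI2 against FI1 each 3. The differences NCM minus CM and ankle minus blood gave 2 each. Colec12 was among the members DESeq2 called in CM, in NCM and in NCM minus CM, with fitted values of 14.92, -23.49 and -38.41. In blood it had counts only in 1 control NCM and 1 HUPO CM library, so these values rest on single libraries. Its DESeq2 calls in NCM against CM of either arm rest on the same libraries. With only the groups compared, HUPO against control gave 0 in NCM and 1 each in FI3, FH1 and FH2 (in FH2 Colec12). Control FI3 against FI1, control FI1 against CM, HUPO NCM against CM, FI2 against FH2 and NCM minus CM gave 0. With a term for sex, chosen after seeing the data, NCM gave 0, control FI3 against FI1 1 and control FI1 against CM 0. With control FI1 reduced to the library with the fewest fibroblast transcripts, also chosen after seeing the data, ankle minus blood gave 1 and the Colec12 log2 fold change of control FI1 against CM was 0. Smaller changes were these. With the default dispersion, Cd36 was added in control FI3 against FI1 and control ankle against blood and Stab1 in HUPO FH against FI, and Colec12 was lost in HUPO ankle against blood, as it was with no filter. With only the groups compared, Cd36 was added in control FH against FI and control ankle against blood, took the place of Msr1 in control NCM against CM and was lost in HUPO ankle against blood, and Stab1 was added in HUPO FH against FI. In control ankle against blood Cd68 was lost with a term for sex and Colec12 with control FI1 reduced.

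With single libraries left out, counts ran from 0 to 1 for HUPO against control in CM and NCM, control FI1 against CM, HUPO FI1 against CM, FI2 against FH2, NCM minus CM and ankle minus blood. They ran from 1 to 2 for FI3, control FI3 against FI1, HUPO FI3 against FI1 and FI2 against FI1, and from 0 to 2 for FH2. Fitted values of genes at or near 0 changed sign or vanished: Colec12 ranged from 0 to 2.45 in CM, -9.33 to 0 in NCM, 0 to 9.33 in control NCM against CM and -2.45 to 0 in HUPO NCM against CM, and Stab1 from -6.19 to 0 in HUPO NCM against CM.

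Over all tested genes, same-numbered libraries deviated together little (38 pairs, r -0.0177 to 0.0461, median 0.00939). The 124 differently numbered pairs had r of -0.0477 to 0.031, median -0.00191. Libraries sharing a number were of the same sex, apart from the control FH2 library with transcripts of both sexes. Whether a number marks a mouse is not settled by these values. The main fit leaves the numbers out and treats such libraries as independent. With the replicate block, control FH against FI gave 3 members (Msr1, Stab1 and Cd68) and HUPO FH against FI 3 (Cd36, Cd68 and Colec12), without Msr1 (adjusted p = 0.0735).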
